A study of Mus musculus with 20 samples.

Results

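The enzymes that cut the liver matrix, their tissue inhibitors and the enzymes that crosslink collagen were followed across the diets of a mouse steatohepatitis model. They were chosen by name alone as the genes whose symbol begins with Mmp, Timp, Adam or Adamts followed by a number, together with Lox and Loxl1 to Loxl4, with Mmp12 left out. A gene was read from its brightest probe set among those that name it alone, and 68 of the 18193 genes on the arrays met the rule, through 123 of 45037 probe sets. The mice were C57BL/6J males that began at 7 weeks of age and ate their diet for 12 weeks. In every group the livers were taken after a fast of 2 h. In the CL + AX group (n = 5) the feed was the CL diet with 0.02% astaxanthin, a carotenoid antioxidant. In the CL + VE group (n = 5) the same diet carried 0.02% vitamin E. The CL group (n = 5) ate that diet alone, with 60% of calories as fat, 1.25% cholesterol and 0.5% cholate, and the NC group (n = 5) ate normal CRF-1 chow. Cholate was thus present in all groups but NC, and 1 liver of each mouse gave 1 array.

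Matrix metalloproteinases (MMPs) are zinc enzymes that are secreted or held at the cell surface and that digest collagens and other matrix proteins once their inhibitory propeptide is removed. The TIMPs bind to their active sites, the ADAMs release cytokines and receptors from the surface of cells, and the ADAMTS enzymes are secreted and cut proteoglycans or trim procollagens. Lysyl oxidases oxidize lysines of collagen and elastin so that the fibres crosslink. In an injured liver some of these genes are known from activated stellate cells and macrophages more than from hepatocytes.

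Signals are given as log2 of the MAS5 intensity after quantile normalization, and a difference of 1 on that scale is a doubling. A level describes 1 probe set and cannot be set against that of another gene. Over the 68 genes the mean level ran from -0.93 to 10.06, and 28 of them reached 4.21, the median over all probe sets, as did 11398 of all genes. The brightest probe set of the other 40 genes lay below that level, 18 of them under 2. The median signal of an array as deposited was 26.4 to 27.8 in CL + AX, 17.1 to 20.8 in CL + VE, 19.4 to 24.9 in CL and 13.0 to 18.9 in NC livers. The log2 ratio of the 3′ to the 5′ Gapdh control probe sets, which grows as RNA breaks down, was -0.14 ± 0.05 in CL + AX, -0.03 ± 0.12 in CL + VE, -0.17 ± 0.06 in CL and 0.57 ± 0.14 in NC livers (SD, n = 5 each). The same ratio for Actb was 1.16 ± 0.07 in CL + AX, 1.43 ± 0.08 in CL + VE, 1.14 ± 0.09 in CL and 1.66 ± 0.17 in NC livers. Every CL + VE array had a higher Actb ratio than every CL and CL + AX array. The part of these ratios in the differences from NC, and in those between CL + VE and the other CL-based groups, was not tested. The summed signal of 10 hepatocyte markers was 108246 to 114112 in CL + AX, 109409 to 116352 in CL + VE, 109180 to 115365 in CL and 106619 to 113554 in NC livers, so the liver label was borne out in every group.

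The sequences just before the transcription start are shown for the collagenase and the 3 inhibitors that were higher in CL than in NC, so that an enzyme and its inhibitors can be read side by side. They come from RefSeq (GRCm38.p6), are written 5′ to 3′ on the strand of the gene and span 250 bases that end at the last base before the start. Capitals mark matches to the AP-1 motif TGANTCA, the TATA motif TATAAA or the SP1 motif GGGCGG, each searched on both strands, so that an SP1 match on the other strand reads as its reverse complement. The Mmp13 sequence lies at chr9:7272264-7272513 on the plus strand, that of Timp1 at chrX:20869916-20870165 on the plus strand, that of Timp2 at chr11:118355412-118355661 on the minus strand and that of Timp3 at chr10:86300162-86300411 on the plus strand.
Mmp13: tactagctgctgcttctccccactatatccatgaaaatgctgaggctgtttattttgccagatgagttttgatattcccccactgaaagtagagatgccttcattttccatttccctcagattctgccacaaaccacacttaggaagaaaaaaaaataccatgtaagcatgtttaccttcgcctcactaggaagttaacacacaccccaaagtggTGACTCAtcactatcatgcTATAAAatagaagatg
Timp1: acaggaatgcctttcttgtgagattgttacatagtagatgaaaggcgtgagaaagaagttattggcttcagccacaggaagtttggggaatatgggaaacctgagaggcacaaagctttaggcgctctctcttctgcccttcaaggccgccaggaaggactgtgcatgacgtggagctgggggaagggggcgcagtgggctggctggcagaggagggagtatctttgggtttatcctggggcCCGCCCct
Timp2: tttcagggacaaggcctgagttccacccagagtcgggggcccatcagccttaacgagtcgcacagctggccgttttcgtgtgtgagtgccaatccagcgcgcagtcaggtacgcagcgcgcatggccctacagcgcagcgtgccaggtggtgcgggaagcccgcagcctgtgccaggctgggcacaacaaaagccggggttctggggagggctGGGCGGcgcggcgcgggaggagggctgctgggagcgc
Timp3: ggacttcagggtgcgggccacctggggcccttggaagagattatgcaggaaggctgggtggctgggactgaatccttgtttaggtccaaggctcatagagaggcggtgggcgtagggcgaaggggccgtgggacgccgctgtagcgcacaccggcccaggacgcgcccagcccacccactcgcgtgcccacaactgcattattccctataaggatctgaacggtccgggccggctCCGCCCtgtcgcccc
The Mmp13 window held 1 AP-1 match and 1 TATA match and no SP1 match, whereas each inhibitor window held 1 SP1 match and neither other motif. Promoters were given for 37 of the 68 genes, 7 of them among the 15 that were higher in CL. The SP1 letters were in 6 of those 7 (Adam8, Adam10, Adam17, Timp1, Timp2 and Timp3), in 10 of the 30 others and in 32.9% of 27025 genes. The AP-1 letters were in Mmp13 alone of the 7, in 7 of the 30 others and in 6.87% of all genes. The TATA letters were likewise in Mmp13 alone of the 7, in 9 of the 30 others and in 13.0% of all genes. A match is a string of letters and does not show that a factor binds there.

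The first comparison asked what the CL diet did to these genes. In CL livers 15 of the 68 genes (22.1%) were higher than in NC livers at an adjusted p under 0.05, and 2 (2.94%) were lower, which makes 17 in either direction (25%). Over all genes the same test called 12% higher and 11.3% lower, 23.3% in all. The genes that rose were Timp1, Timp2 and Timp3, Mmp2, Mmp13 and Mmp19, Adam8, Adam9, Adam10, Adam11 and Adam17, Adamts5 and Adamts15, and Lox and Loxl1. Those that fell were Adam6b and Adam26a. The median log2 fold change was 0.37 over the 68 genes, beside -0.04 over all genes, and 45 of the 68 lay above 0. In 12 genes every CL mouse was above every NC mouse (17.6% of the 68, against 8.07% of all genes), and in 2, Adam6b and Adamts16, every CL mouse was below (2.94%, against 7.85%).

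**Figure D1:**
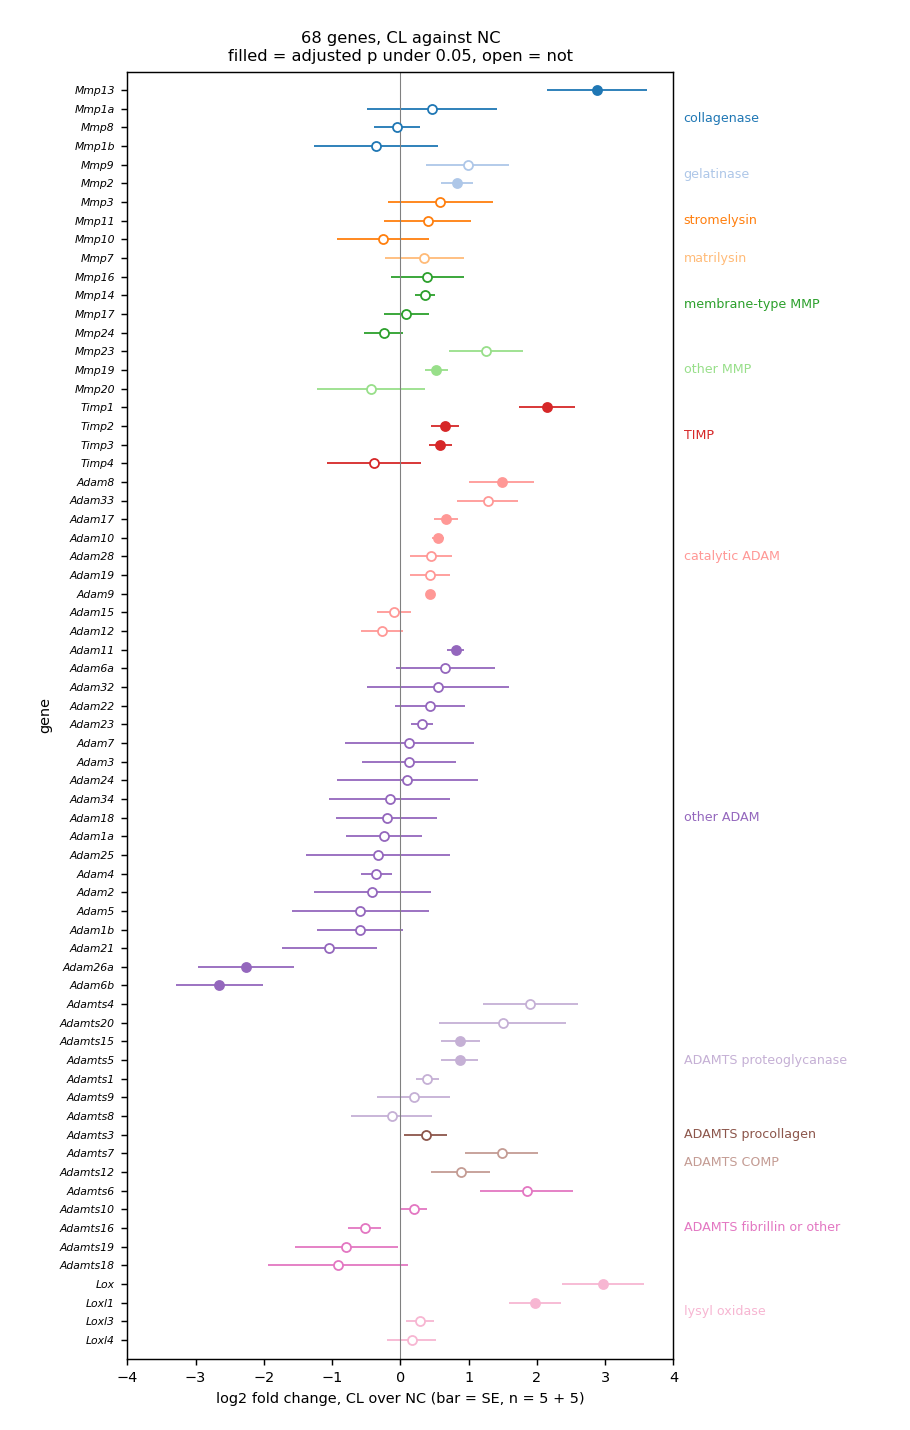
Log2 fold change of CL over NC for each of the 68 genes, grouped by role, with the standard error as a bar (n = 5 + 5); filled points passed an adjusted p of 0.05 and open points did not. The 15 filled points on the right lie between 0.43 for Adam9 and 2.97 for Lox, and the 2 on the left are Adam26a and Adam6b.

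Of the 4 inhibitors, 3 rose in CL livers. Timp1, a secreted inhibitor of most MMPs, had levels of 6.49, 7.15, 5.24, 6.39 and 5.50 in the CL + AX livers, 4.84, 5.34, 5.58, 5.11 and 7.15 in the CL + VE livers, 4.90, 7.05, 5.28, 5.55 and 5.76 in the CL livers and 3.65, 3.57, 3.54, 3.74 and 3.32 in the NC livers. The NC mice lay within a narrow band and every mouse on a CL-based diet was above it. Timp1 was 4.42-fold higher in CL than in NC (log2 fold change 2.15 ± 0.41 SE, adjusted p = 0.0007), and with a pseudocount of 16 its log2 fold change was 1.32 (adjusted p = 0.0069). Timp2, which inhibits MMPs and also helps Mmp14 to activate the Mmp2 precursor, had levels of 7.46, 8.06, 7.49, 7.37 and 7.65 in the CL livers, against 6.87, 6.74, 6.75, 7.25 and 7.17 in the NC livers. No CL mouse fell among the NC mice, and the rise was 1.57-fold (0.65 ± 0.20, adjusted p = 0.027). Of the 5 other Timp2 probe sets, 3 were also higher at an adjusted p under 0.05, by 0.89, 1.49 and 1.68 on the log2 scale, and the dim ones gave -0.06 and 0.56. Timp3, which stays bound to the matrix and also inhibits Adam17 and the aggrecanases, had levels of 6.88, 6.81, 6.91, 6.67 and 6.99 in the CL livers, against 6.24, 5.78, 6.77, 6.20 and 6.33 in the NC livers. The CL mice were close together and only NC mouse 3 lay among them, and Timp3 rose by 0.59 ± 0.17 (adjusted p = 0.016). None of its 3 other probe sets was called, with log2 fold changes of 0.43 (adjusted p = 0.25), 0.77 (adjusted p = 0.35) and 0.62 (adjusted p = 0.30). Without NC mouse 2 the adjusted p of Timp3 was 0.057. Timp2 lost its call without CL mouse 2 or 5 or without NC mouse 1, 2 or 3, with an adjusted p of up to 0.088. Timp4, best known from the heart, was dim, averaged 3.49 ± 0.89 in CL and 3.88 ± 1.38 in NC (SD, n = 5 each) and did not pass the test (-0.39 ± 0.69, adjusted p = 0.77).

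Among the MMPs, the interstitial collagenase and gelatinase A rose. Mmp13, the chief interstitial collagenase of rodents, had levels of 5.40, 7.11, 3.54, 5.69 and 5.10 in the CL + AX livers, 3.19, 3.93, 3.32, 2.24 and 7.04 in the CL + VE livers, 3.38, 6.69, 4.21, 5.03 and 5.20 in the CL livers and 1.99, 1.32, 2.60, 2.51 and 1.65 in the NC livers. All 5 CL mice lay above all 5 NC mice, but the CL values were spread widely, with mouse 2 at the top and mouse 1 at the bottom. Mmp13 was 7.38-fold higher in CL than in NC (2.88 ± 0.73, adjusted p = 0.0075), on a probe set below the median brightness. With a pseudocount of 16, which shrinks dim signals, Mmp13 gave 1.27 and lost its call (adjusted p = 0.066), and the per-gene test that the methods name gave an adjusted p of 0.0504. Mmp2, the gelatinase of stellate cells and fibroblasts, had levels of 6.94, 7.69, 6.17, 6.94 and 6.94 in the CL + AX livers, 6.73, 7.05, 6.60, 7.03 and 7.87 in the CL + VE livers, 6.56, 7.07, 6.42, 6.60 and 6.88 in the CL livers and 6.21, 5.74, 5.45, 5.98 and 5.99 in the NC livers. It was 1.78-fold higher in CL (0.83 ± 0.24, adjusted p = 0.016) with no overlap, while its other probe set rose by a smaller 0.54 that was not called (adjusted p = 0.27). Mmp19, a broad-range MMP of basement membrane substrates, averaged 6.70 ± 0.33 in CL and 6.17 ± 0.17 in NC livers (SD, n = 5 each) and rose 1.44-fold (0.52 ± 0.17, adjusted p = 0.032), with CL mouse 2 at 6.22 among the NC mice. The other Mmp19 probe set gave 0.44 and was not called (adjusted p = 0.23). The Mmp19 call was lost without CL mouse 4 or 5 or without NC mouse 1, 2 or 3, with an adjusted p of up to 0.095.

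Several MMPs known from fibrosis were not called on their brightest probe set. Mmp14, the membrane-type enzyme that cuts collagen at the cell surface, had levels of 8.95, 9.76, 8.95, 9.23 and 9.10 in the CL livers, against 8.91, 8.63, 8.95, 8.60 and 9.08 in the NC livers. The groups overlapped and its log2 fold change was 0.36 ± 0.14 (adjusted p = 0.087), although a dimmer probe set of the same gene gave 1.45 (adjusted p = 0.023) and another gave 0.10 (adjusted p = 0.74). The mean over the Mmp14 probe sets gave 0.64 and was called (adjusted p = 0.031). Mmp9, gelatinase B of leukocytes, had levels of 4.98, 5.16, 3.15, 4.14 and 3.96 in the CL livers, against 4.50, 1.73, 4.20, 1.41 and 4.62 in the NC livers. NC mice 2 and 4 were far below the other 3, and the difference of 0.99 ± 0.61 was not called (adjusted p = 0.31). Mmp8, the collagenase of neutrophils, gave -0.05 ± 0.34 (adjusted p = 0.95), and Mmp7, matrilysin, gave 0.35 ± 0.58 (adjusted p = 0.76).

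Of 9 catalytically active ADAMs, 4 rose. Adam10, which sheds Notch, cadherins and other surface proteins, had levels of 9.42, 9.59, 9.21, 9.42 and 9.31 in the CL livers, against 8.69, 9.03, 8.83, 8.80 and 8.85 in the NC livers. Every CL mouse was above every NC mouse, at a 1.47-fold difference (0.55 ± 0.09, adjusted p = 0.00024). Adam17, the convertase of tumour necrosis factor, had levels of 7.46, 7.86, 7.59, 7.68 and 7.25 in the CL livers, against 6.86, 6.61, 7.13, 6.57 and 7.30 in the NC livers, and NC mouse 5 lay just above CL mouse 5. It rose 1.59-fold (0.67 ± 0.17, adjusted p = 0.0087), a call that the per-gene test of the methods did not make (adjusted p = 0.064). The other Adam17 probe sets gave 0.57 (adjusted p = 0.15) and 0.34 (adjusted p = 0.12), and neither was called. Adam9, a widely expressed sheddase, had the smallest rise and the smallest spread, with 10.23 ± 0.03 in CL and 9.80 ± 0.05 in NC livers (SD, n = 5 each) and a 1.35-fold difference (0.43 ± 0.05, adjusted p = 3.4e-06). Adam8, a sheddase of leukocytes and macrophages, had levels of 5.17, 7.30, 5.58, 6.05 and 5.56 in the CL livers, against 4.65, 4.75, 3.77, 4.16 and 4.92 in the NC livers. No values overlapped and the rise was 2.79-fold (1.48 ± 0.47, adjusted p = 0.031), but CL mouse 2 stood well above the other 4, and the call was lost without it. It was also lost without CL mouse 4, NC mouse 3 or NC mouse 4, with an adjusted p of up to 0.11. Adam33 (1.28 ± 0.45, adjusted p = 0.051), Adam28 (0.45 ± 0.31), Adam19 (0.44 ± 0.29), Adam15 (-0.09 ± 0.25) and Adam12 (-0.27 ± 0.31) did not pass.

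The remaining 19 ADAMs, most of them known from testis or lacking the catalytic site, gave 1 rise and 2 falls, with a median log2 fold change of -0.20. The rise was in Adam11, a non-catalytic ADAM known from neurons, with levels of 7.48, 6.87, 7.36, 7.15 and 7.55 in the CL livers, against 6.43, 6.53, 6.43, 6.47 and 6.50 in the NC livers. The NC mice stood close together and below every CL mouse, and the difference was 1.75-fold (0.81 ± 0.13, adjusted p = 0.0001). The falls were in Adam6b (-2.65 ± 0.64, adjusted p = 0.0049) and Adam26a (-2.26 ± 0.70, adjusted p = 0.028). Both lay near the floor of the arrays, with means of 0.15 and -0.51 in CL and 2.80 and 1.76 in NC livers, and Adam6b has a near-identical copy, Adam6a, so that its signal cannot be assigned with certainty. With a pseudocount of 16 they gave -0.51 and -0.25. Adam26a lost its call without any 1 of 7 mice (CL mice 1, 2, 4 and 5 and NC mice 2, 3 and 5), with an adjusted p of up to 0.07.

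Of 7 ADAMTS enzymes that cut proteoglycans such as aggrecan and versican, 2 rose. Adamts5, the main aggrecanase of mouse cartilage, had levels of 5.69, 6.30, 6.18, 5.96 and 6.13 in the CL livers, against 5.29, 5.17, 4.48, 5.63 and 5.34 in the NC livers. Adamts15, another enzyme of this branch, had levels of 5.13, 5.74, 4.95, 5.14 and 5.34 in the CL livers, against 4.05, 4.70, 3.87, 4.64 and 4.66 in the NC livers. In both genes the groups did not overlap, and the rises were 1.83-fold (0.87 ± 0.27, adjusted p = 0.029) and 1.84-fold (0.88 ± 0.28, adjusted p = 0.035). The Adamts5 call was lost without CL mouse 2, 3 or 5 or NC mouse 2 or 3 (adjusted p up to 0.094). The Adamts15 call was lost without CL mouse 2, 4 or 5 or NC mouse 1 or 3 (adjusted p up to 0.098). Adamts4, the other classical aggrecanase, had levels of 3.61, 3.94, 4.05, 4.36 and 1.0 in the CL livers, against 0.22, 0.96, 3.65, -0.71 and 3.32 in the NC livers. NC mice 1, 2 and 4 were near the floor and CL mouse 5 lay with them, and the log2 fold change of 1.90 ± 0.69 was not called (adjusted p = 0.062). The mean over the Adamts4 probe sets gave 1.49 and was called (adjusted p = 0.013). Adamts1, which cuts versican, gave 0.39 ± 0.17 (adjusted p = 0.12). None of the 8 procollagen, cartilage oligomeric matrix protein, fibrillin and other ADAMTS genes was called, and these included Adamts7 at 1.48 ± 0.54 and Adamts6 at 1.85 ± 0.68. Adamts2, Adamts13 and Loxl2 had no probe set of their own and were not analysed here.

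Among the crosslinkers, Lox and Loxl1 rose and Loxl3 and Loxl4 did not. Lox, the founding lysyl oxidase, had levels of 4.14, 5.93, 3.25, 5.0 and 4.94 in the CL + AX livers, 4.46, 3.79, 3.55, 4.55 and 5.96 in the CL + VE livers, 3.46, 5.81, 4.34, 4.39 and 4.93 in the CL livers and 1.97, 0.56, 2.45, 0.03 and 3.06 in the NC livers. It was 7.84-fold higher in CL than in NC (2.97 ± 0.60, adjusted p = 0.0011), the largest fold change of the 68 genes, and the lowest CL mouse was above the highest NC mouse. Its probe set was below the median brightness, and with a pseudocount of 16 its log2 fold change was 1.06 (adjusted p = 0.014). The 2 dimmer Lox probe sets gave 1.72 (adjusted p = 0.055) and 0.56 (adjusted p = 0.77). Loxl1, which is needed for elastic fibres, had levels of 6.34, 7.11, 5.33, 6.40 and 6.22 in the CL + AX livers, 5.56, 6.11, 5.31, 6.34 and 7.07 in the CL + VE livers, 5.87, 6.71, 6.24, 5.58 and 5.92 in the CL livers and 4.61, 4.59, 3.18, 3.13 and 4.96 in the NC livers. Every mouse on a CL-based diet lay above every NC mouse, and the difference between CL and NC was 3.91-fold (1.97 ± 0.38, adjusted p = 0.00074), while a dim second Loxl1 probe set gave -0.10 (adjusted p = 0.95) and the mean over both gave 0.93 (adjusted p = 0.18). The per-gene test of the methods gave Loxl1 an adjusted p of 0.052. Loxl3 gave 0.28 ± 0.20 (adjusted p = 0.40). Loxl4 gave 0.16 ± 0.35 on its brightest probe set (adjusted p = 0.82) and 1.48 on a dimmer one (adjusted p = 0.037), so its probe sets disagreed.

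**Figure D2:**
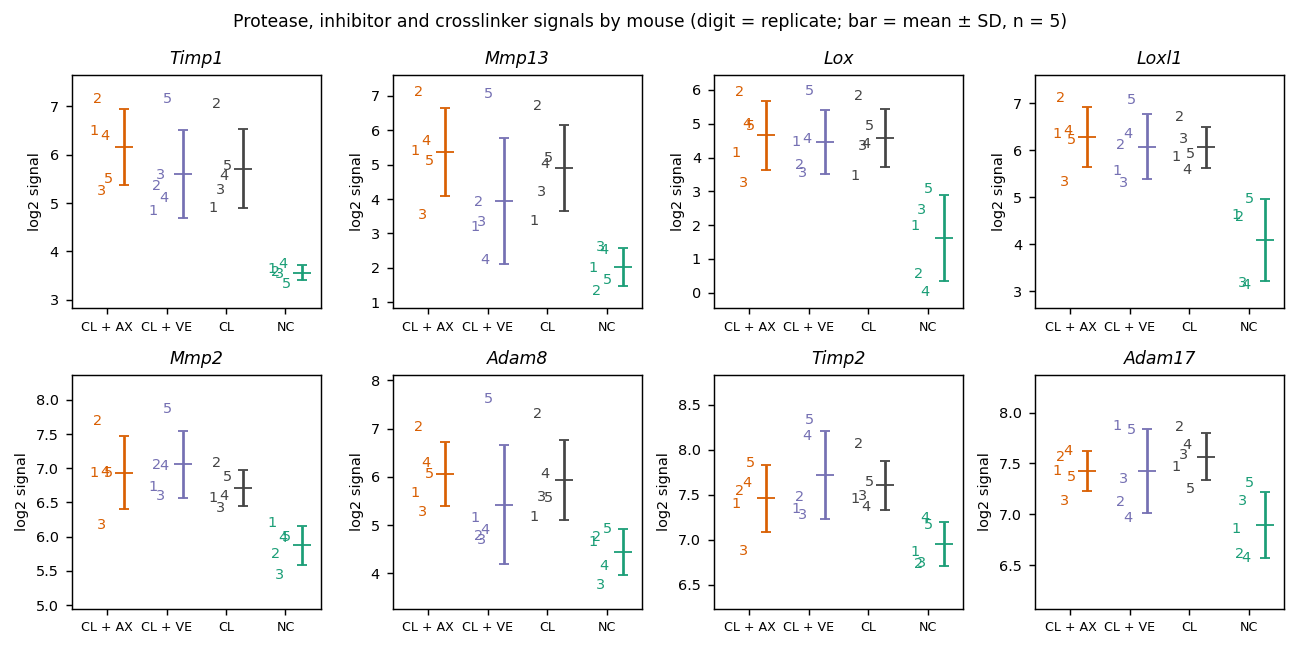
Log2 signal of 8 genes in each mouse, the digit being the replicate number within the group, with the mean and SD of 5 mice beside it. For Timp1, Lox and Loxl1 all mice of the 3 CL-based groups lie above the NC mice, and in these 3 genes mouse 2 of CL + AX, mouse 5 of CL + VE and mouse 2 of CL are the highest of their groups.

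The genes that activate or restrain these proteases moved both ways. Of 20 such genes fixed as a list, 18 were measured, 5 rose in CL and 3 fell, with a median log2 fold change of 0.08. Over all genes 12% were called higher and 11.3% lower, so calls both ways are not particular to such a list. Plau (urokinase) rose by 2.50 ± 0.53 (adjusted p = 0.0018) and Plat (tissue plasminogen activator) by 1.61 ± 0.42 (adjusted p = 0.0084). Both generate plasmin, which can cut MMP precursors. Furin, the convertase that removes propeptides of ADAMs and membrane-type MMPs, fell by 0.63 on the log2 scale (SE 0.10, adjusted p = 0.0001), and the related convertase Pcsk6 fell by 0.33 (SE 0.08, adjusted p = 0.0054). Of 22 genes that process or crosslink collagen, 21 were measured, 4 rose and 3 fell, with a median of 0.07. Crtap, of the prolyl 3-hydroxylation complex, rose by 0.63 ± 0.16 (adjusted p = 0.007) and Pcolce2, an enhancer of procollagen C-proteinase, by 1.63 ± 0.50 (adjusted p = 0.026). Bmp1, the procollagen C-proteinase itself and an activator of Lox, fell by 0.68 (SE 0.10, adjusted p = 4.1e-05), and Plod3, a lysyl hydroxylase, fell by 0.34 (SE 0.11, adjusted p = 0.034). No gene of either list was called with a supplement against CL.

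In the 3 groups on a CL-based diet, some mice stood at the top or the bottom of their group in many of the 15 genes that rose. CL mouse 2 was the highest of its group in 11 of the 15, CL + VE mouse 5 in 11 and CL + AX mouse 2 in 8. CL + AX mouse 3 was the lowest of its group in 11 and CL + VE mouse 3 in 6. No NC mouse was the highest of its group in more than 4 of the 15, but NC mouse 3 was the lowest in 6, as many as CL + VE mouse 3. The exceptions for CL mouse 2 were Adam9, Adam11, Timp3 and Mmp19, and those for CL + VE mouse 5 were Adam9, Adam11, Adam17 and Mmp19.

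**Figure D3:**
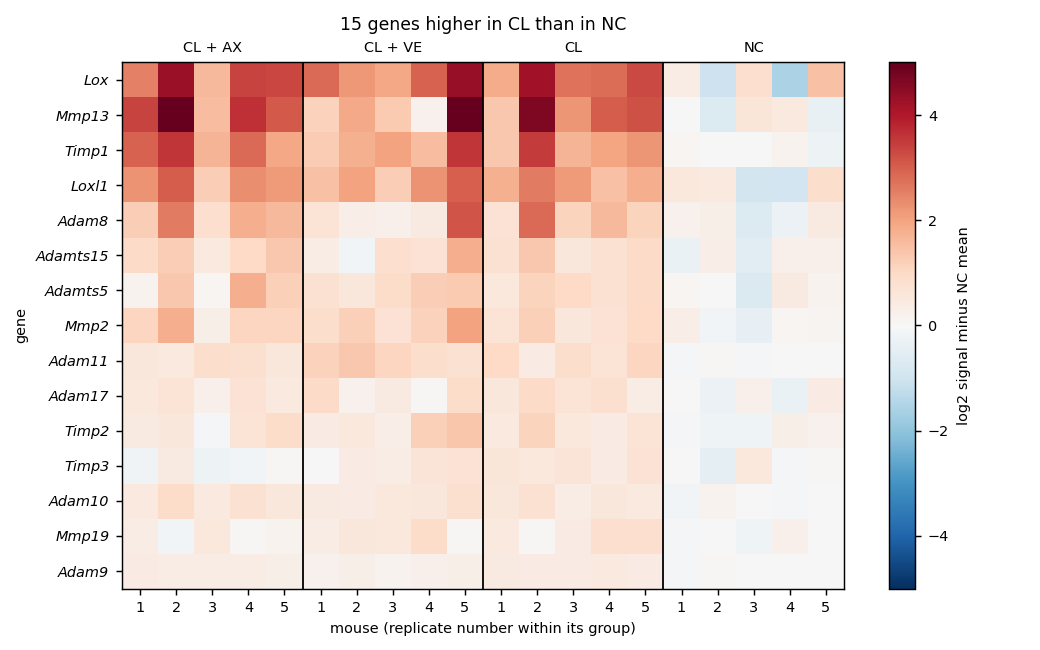
Log2 signal minus the NC mean for the 15 genes that rose in CL (rows, by fold change) in the 20 mice (columns, by group and replicate number), red above and blue below the NC mean. Columns CL + AX 2, CL + VE 5 and CL 2 are the darkest in the upper rows, and column CL + AX 3 is among the palest of its group.

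Markers of macrophages and stellate cells moved with these genes. Of 15 macrophage markers 13 were higher in CL than in NC, and of 15 stellate cell and fibroblast markers 12 were, with Acta2, Des and Thy1 not called. The summed macrophage signal was 8869 to 19244 in CL + AX, 7516 to 18481 in CL + VE, 9304 to 23335 in CL and 1864 to 5988 in NC livers. The summed stellate signal was 5233 to 13666 in CL + AX, 6356 to 14783 in CL + VE, 8332 to 14621 in CL and 3418 to 5574 in NC livers. CL mouse 2 had the highest macrophage sum (23335) and the highest stellate sum (14621) of its group, and CL + VE mouse 5 had the highest of both in its own (18481 and 14783). CL + AX mouse 3 had the lowest of both in its group (8869 and 5233). CL + AX mouse 2 had the highest stellate sum of its group (13666) but a macrophage sum of 17766, below the 19244 of mouse 4, which was the highest in only 2 of the 15 genes. CL + VE mouse 3 had the lowest stellate sum of its group (6356) and a macrophage sum of 11439, while the lowest macrophage sum was that of mouse 4 (7516). Of the other lists, 6 of 10 endothelial, 6 of 11 lymphocyte, 1 of 6 cholangiocyte and 0 of 9 neutrophil markers were higher in CL, beside 12% of all genes. The lymphocyte sum was also the highest of its group in CL mouse 2 (1181) and the lowest in CL + AX mouse 3 (429), but in CL + VE mouse 1 had the highest (988). The cholangiocyte sum was the highest in CL mouse 2 (310) and CL + AX mouse 2 (258), but in CL + VE it was so in mouse 4 (704). No marker was listed at 0. The part of these cells in the rise of the 15 genes was not tested, and in whole liver more cells of a type cannot be told apart from more RNA per cell.

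The second question was whether a supplement altered the genes within the CL diet. With CL + AX against CL, 0 of the 68 genes were called and 0% of all genes were. With CL + VE against CL the counts were again 0 of 68 and 0%, and likewise for CL + AX against CL + VE. At an unadjusted p under 0.05, 1 of the 68 genes was higher and 1 lower in CL + AX than in CL (1.47% each, beside 4.03% and 4.02% of all genes). In CL + VE 1 was higher and 2 were lower (1.47% and 2.94%, beside 4.85% and 2.7%), and in CL + AX against CL + VE 3 were higher and 2 lower (4.41% and 2.94%, beside 3.66% and 6.59%). The per-gene test that the methods name, which does not share the spread among genes, gave 2, 5 and 3 such genes in the same order of comparisons and 0 in each after adjustment. A p above the threshold does not show equal levels, and the 95% confidence intervals give what the 5 mice per group allow.

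Over the 15 genes that rose in CL, the log2 fold change of CL + AX over CL ran from -0.60 for Timp3 to 0.47 for Mmp13, with a median of 0.07, and 9 were above 0. That of CL + VE over CL ran from -0.96 for Mmp13 to 0.35 for Mmp2, with a median of -0.10, and 6 were above 0. The 15 genes were chosen for being high in CL, and the same CL arrays are the baseline here. The choice itself thus draws these values down. Over all genes 51.5% lay above 0 with CL + AX and 56.0% with CL + VE. The interval reached 0.10 to either side of the estimate for Adam9 and 1.52 for Mmp13. For Timp1 it was -0.41 to 1.30 with CL + AX and -0.95 to 0.75 with CL + VE. For Lox it was -1.17 to 1.31 with CL + AX and -1.37 to 1.11 with CL + VE, and for Loxl1 it was -0.57 to 1.01 and -0.77 to 0.80. For these 3 genes, which are among the largest rises of the 15, no interval reached the NC mean. That does not hold for all 15. With CL + AX the interval of Timp3 took in the NC mean, as it averaged 6.25 in CL + AX, 6.85 in CL and 6.26 in NC. For Mmp13 the interval was -1.05 to 1.99 with CL + AX and -2.48 to 0.56 with CL + VE, and the CL + VE values divided into mouse 5 at 7.04 and the other 4 at or below 3.93.

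**Figure D4:**
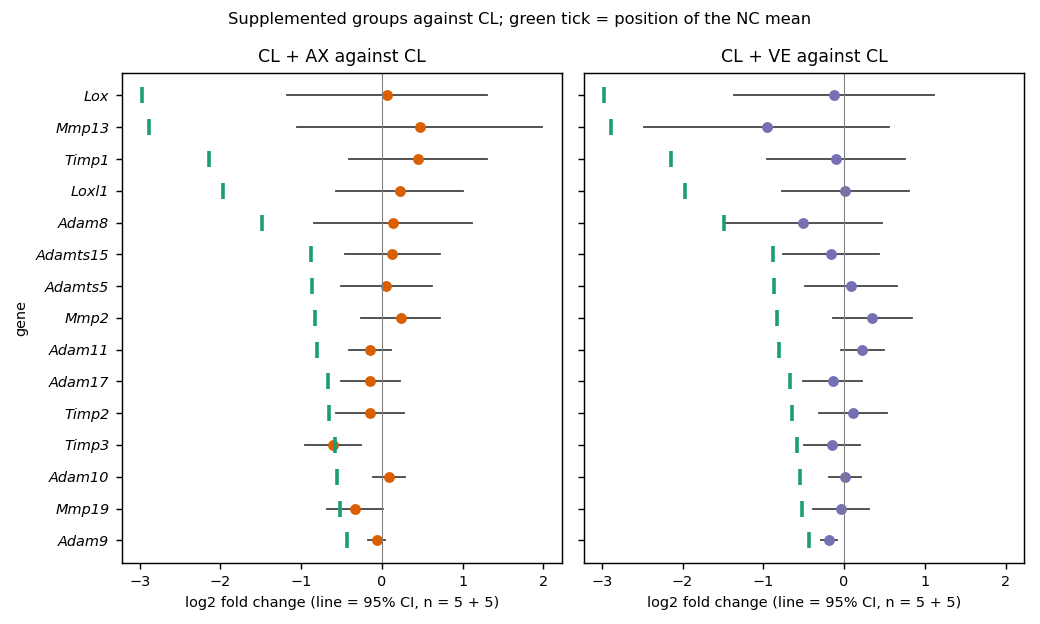
Log2 fold change of CL + AX over CL (left) and CL + VE over CL (right) with the 95% confidence interval as a line (n = 5 + 5) for the 15 genes that rose in CL, and the NC mean relative to CL as a green tick. Only Timp3 with CL + AX and Adam9 with CL + VE have an interval that leaves out 0, and neither was called after adjustment over all probe sets.

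The smallest unadjusted p with astaxanthin was that of Timp3. Its levels were 6.08, 6.73, 6.02, 6.11 and 6.31 in the CL + AX livers, 6.30, 6.69, 6.62, 6.91 and 6.97 in the CL + VE livers and 6.88, 6.81, 6.91, 6.67 and 6.99 in the CL livers. CL + AX mouse 2 lay within the CL mice and the other 4 below them. The log2 fold change of CL + AX over CL was -0.60 (SE 0.17, 95% interval -0.95 to -0.26, limma adjusted p = 0.37), and that of CL + AX over CL + VE was -0.45 (SE 0.17, adjusted p = 0.39, and -0.57 with an adjusted p of 0.045 under median centring). The 3 other Timp3 probe sets gave -0.79 (adjusted p = 0.42), -1.11 (adjusted p = 0.66) and -0.09 (adjusted p = 0.99) for CL + AX over CL. All 4 were below 0 and none was called, and in each of them the CL + AX and CL mice overlapped. For CL + AX over CL + VE the 3 others gave -0.82 (adjusted p = 0.25), -0.56 (adjusted p = 0.81) and, the other way, 0.58 (adjusted p = 0.71). Under median centring the median over all genes in that comparison was -0.17, beside -0.02 after quantile normalization. On the brightest probe set the CL + AX mean of 6.25 ± 0.29 stood beside 6.85 ± 0.12 in CL and 6.26 ± 0.35 in NC (SD, n = 5 each).

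**Figure D5:**
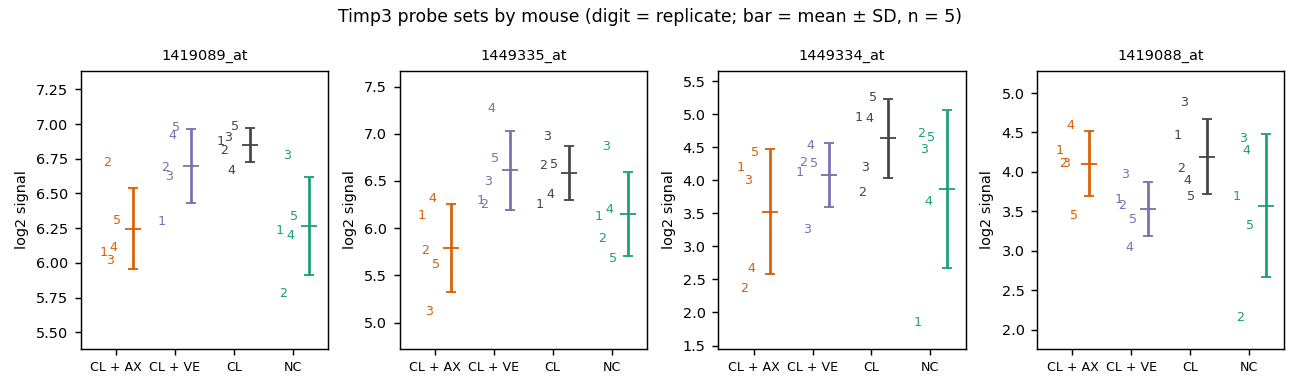
Log2 signal of the 4 Timp3 probe sets in each mouse (digits are replicate numbers) with the mean and SD of 5 mice. In the first 2 panels the CL + AX mean is 0.60 and 0.79 below the CL mean, and in the last it is 0.09 below.

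With vitamin E, Adam9 was lower in every CL + VE mouse (10.02, 10.10, 9.99, 10.04 and 10.09) than in every CL mouse (10.25, 10.20, 10.22, 10.28 and 10.20). The difference was small (-0.19, SE 0.05, 95% interval -0.29 to -0.08, limma adjusted p = 0.29). It was the only 1 of the 68 genes with all CL + VE mice below all CL mice (1.47%, beside 0.555% of all genes). Adamts1 gave -0.51 in CL + VE over CL (SE 0.17, limma adjusted p = 0.41), with levels of 6.72, 7.05, 7.04, 6.22 and 7.06 in the CL + VE livers, against 6.97, 7.62, 7.38, 7.52 and 7.18 in the CL livers. The groups overlapped through CL mouse 1, which lay below CL + VE mice 2, 3 and 5. Adam6b gave 2.54 ± 0.64 in CL + VE over CL (adjusted p = 0.22) near the floor, and all CL + VE mice lay above all CL mice in this gene alone (1.47%, beside 1.04% of all genes), and 1.33 ± 0.64 in CL + AX over CL (adjusted p = 0.69). Adam6a, its near-identical copy, gave -1.50 ± 0.73 in CL + AX over CL (adjusted p = 0.70). Between the supplements, Adam11 gave -0.37 in CL + AX over CL + VE (SE 0.13, limma adjusted p = 0.34), but 0.0202 with no scaling of the arrays and -0.53 with median centring (adjusted p = 0.039). Adam9 gave 0.12 (SE 0.05, limma adjusted p = 0.49), but -0.12 with median centring.

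The supplemented groups were also set against NC, with the same NC arrays as in the comparison of CL with NC. In CL + AX livers 15 genes were higher than in NC (22.1%, beside 12% of all genes) and 1 was lower (1.47%, beside 11.3%). In CL + VE livers 13 were higher (19.1%, beside 10.2%) and 1 was lower (1.47%, beside 7.27%). The lower gene was Adam26a in both. Timp1 was above NC by 2.59 ± 0.41 in CL + AX (adjusted p = 0.0001) and by 2.04 ± 0.41 in CL + VE (adjusted p = 0.0017). Lox was above NC by 3.04 ± 0.60 in CL + AX (adjusted p = 0.00088) and by 2.84 ± 0.60 in CL + VE (adjusted p = 0.0024). Mmp13 was above NC by 3.35 ± 0.73 in CL + AX (adjusted p = 0.0023), whereas in CL + VE it gave 1.92 ± 0.73 (adjusted p = 0.090). Mmp14 was called in both, by 0.61 ± 0.14 in CL + AX (adjusted p = 0.004) and by 0.45 ± 0.14 in CL + VE (adjusted p = 0.038). Adamts4 gave 2.73 ± 0.69 over NC in each (adjusted p = 0.0075 in CL + AX and 0.010 in CL + VE). Timp3 gave -0.02 ± 0.17 in CL + AX (adjusted p = 0.97) and 0.44 ± 0.17 in CL + VE (adjusted p = 0.091). Adam8 was called in CL + AX (1.62 ± 0.47, adjusted p = 0.019) and not in CL + VE (0.98 ± 0.47, adjusted p = 0.20), where mouse 5 had 7.61 and the other 4 at most 5.15. A call in 1 supplemented group and not in the other does not show that they differ, and the direct comparison called neither Mmp13, Timp3 nor Adam8.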

How the data were processed

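Total RNA from the liver of each of 20 mice was labelled with a 3′ in vitro transcription kit and hybridized to 1 Affymetrix whole-genome mouse array. The authors computed the deposited intensity values with MAS5, giving 45101 linear probe set signals per array between 0.0139 and 18757, with no common scale across arrays. Here the 64 control probe sets were removed and the log2 signals of the remaining 45037 were quantile normalized. Gene names came from the platform annotation: 34945 probe sets name 1 gene, 932 several and 9160 none. A gene was read from its brightest one-gene probe set by mean over the 20 arrays. The 4 groups were fitted together in limma 3.58.1 under R 4.3.3, with 16 residual degrees of freedom and a variance prior that follows the mean signal. Unless another test or setting is named, p comes from the moderated statistic of this fit. An adjusted p is by Benjamini-Hochberg over the 45037 probe sets and was called under 0.05. The adjustment was over genes for the mean over probe sets, and over the probe sets kept when dim ones were left out. Intervals are 95% intervals of the limma fit. The fit was tested on simulated data. Precision is limited by the number of arrays, and a log2 fold change between groups of 5 had a median SE of 0.36.

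The 68 genes, the lists of markers and of related genes, and the rule for naming genes were chosen with earlier results of these data known. Every member could be named with its fold change. Values for each mouse were due for the 12 largest rises and falls between CL and NC that passed the adjusted p at or above the median signal, for a fixed set of TIMP, lysyl oxidase, MMP, ADAM and ADAMTS genes, and for the 3 smallest p between CL-based groups, and the text gives part of them and those of Adamts4, which was chosen after its values were seen. At most 4 genes of each related list, those with the smallest p, are named. No slide, scan or batch label was given in the sources used here. Replicate numbers were checked for pairing: over 30 pairs of arrays with the same number the correlation of deviations from the group means ran from -0.20 to 0.31, so the numbers, which needed a correlation above 0.1 in every pair, were not taken as pairs. Other settings were no scaling, median centring, trimmed-mean scaling, a pseudocount of 16, dim probe sets left out, the t-test of the methods, no variance trend, the mean over probe sets, a replicate block and leaving out each array. The t-test of the methods was Welch's, run on the quantile-normalized signals without the ANOVA step that the methods also name.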

Additional observations from a re-analysis of the deposited data

Results flagged for a closer look

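Dixon's ratio, the gap of the highest or lowest mouse to its nearest neighbour over the range of the group, was computed for 23 genes in 4 groups, and 3 of the 92 passed the 95% critical value of 0.71, where chance gives about 1 in 20. In CL + VE, Adam8 of mouse 5 was 7.61 and the other mice had 4.70 to 5.15. In NC, Timp4 of mouse 5 was 1.49 and the others had 4.06 to 5.0, on a dim probe set. In CL + AX, Adam9 of mouse 5 was 10.09 and the others had 10.17 to 10.21.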

How the results depend on the processing

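Between CL and NC, 17 of the 68 genes were called. The share of all genes called was counted only in the main fit. The counts under other settings or with a mouse left out therefore stand without it. Other settings gave 29 (28 higher, 1 lower) with no scaling, 17 with median centring, 22 with trimmed-mean scaling, 15 with a pseudocount (which lost Mmp13, Adam8 and Adamts15 and gained Adamts7), 15 with dim probe sets left out, 7 with the t-test of the methods (which lost Timp2, Timp3, Mmp13, Mmp19, Adam8, Adam17, Adamts5, Adamts15, Loxl1 and both falls, at adjusted p of 0.0504 to 0.124, and gained Adamts16), 13 with no variance trend and 16 with the mean over probe sets. With no scaling the median of all genes moved to 0.39, and the median of the 68 genes lay 0.45 above it, beside 0.40 after quantile normalization. With a pseudocount that distance was 0.13. With dim probe sets left out only 28 of the 68 genes could be tested, and Lox and Mmp13 were not among them. Loxl1, Mmp2, Mmp19 and Adamts5 lost their calls with the mean over probe sets. The mean over probe sets gained Adam23, Adamts4 (1.49, adjusted p = 0.013) and Mmp14 (0.64, adjusted p = 0.031). Leaving out 1 mouse gave 12 to 20 calls, with 12 without CL mouse 2 or NC mouse 3 and 20 without NC mouse 5. Of the 15 rises, Adam9, Adam10, Adam11, Adam17, Lox, Loxl1, Mmp2, Mmp13 and Timp1 stayed called in all 20 of these fits, though Adam17, Loxl1, Mmp2 and Mmp13 each lost the call under 1 or more of the settings named above.

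CL + AX and CL + VE had 0 calls against CL in every fit that left out a mouse and under each other setting tried. Between CL + AX and CL + VE no scaling called 2 genes higher and median centring called 2 lower, Adam11 (-0.53, adjusted p = 0.039) and Timp3 (-0.57, adjusted p = 0.045). The median of all genes in this comparison was 0.38 with no scaling and -0.17 with median centring, beside -0.02 after quantile normalization. Against NC, CL + AX had 16 calls, 33 with no scaling and 13 to 17 with 1 mouse left out, and CL + VE had 14 calls, 3 with the t-test of the methods and 11 to 15 with 1 mouse left out (11 without CL + VE mouse 5). Signs turned for Timp4 (0.11) and Adamts16 (0.0107) between CL and NC with no scaling, for Adam11 (0.0202) between CL + AX and CL + VE with no scaling, for Adam9 (-0.12) in that comparison with median centring, and for Loxl4 between CL and NC without NC mouse 1 (-0.15, with a range of -0.15 to 0.29 over the mice left out). The cause was not tested. The replicate numbers did not meet the mark for pairing, a correlation above 0.1 in every pair of arrays, although in CL + AX with CL all 5 pairs were above 0 (0.04 to 0.31, mean 0.15, beside -0.04 for other numbers). With the replicate number as a block, CL against NC had 19 calls, CL + AX against NC 16 and CL + VE against NC 14, and 9 of 20 arrays correlated best with their own number.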
